A study of Homo sapiens with 4 samples.

Results

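The small nuclear RNA (snRNA) genes of the human genome outside the tandem U2 array were examined for peaks of 2 antibodies, labelled PPARα and PML/RARA. The cells were NB4, a promyelocytic leukemia line that carries the PML/RARA fusion. The genes were all RefSeq entries of biotype snRNA on chromosomes 1 to 22 of hg38, leaving out the U2 array on chromosome 17, and a gene was counted as marked when a peak lay within 1 kb of it. Of 156 snRNA genes, 133 were kept out of 56076 annotated genes. The others were 13 genes in the array window, 3 on X, 2 with no chromosome given and 5 on an unplaced or alternate sequence of a numbered chromosome. The 133 comprised 41 genes with a U1, U2, U4, U5, U6, U7, U11, U12, U4atac, U6atac or 7SK symbol, 28 snaR genes and 64 models with no approved symbol, whose type the annotation does not give. They were 60 to 332 bases long (median 120).

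The series used CUT&Tag, in which an antibody directs a transposase to chromatin. The libraries were 1 for an antibody against PPARα, a fatty acid-sensing nuclear receptor, 1 for an antibody labelled PML/RARA, and an IgG library for each. The labels call the antibody libraries treatment and the IgG libraries control, and name no drug, dose or time. Each antibody has 1 peak list, of 9829 PPARα and 46021 PML/RARA peaks, with no replicate, and the IgG libraries were not analysed here. Depth is unknown. What the PML/RARA antibody recognises is not stated by the labels, and unfused PML or RARA cannot be told apart from the fusion. Shares carry 95% Clopper-Pearson intervals and differences 95% Newcombe intervals, which cover counting error over genes only, and no p-value was computed.

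Small nuclear RNAs are short noncoding RNAs that form the core of the spliceosome or process and regulate other transcripts. Of the U and 7SK types, most are made by RNA polymerase II, and U6, U6atac and 7SK by RNA polymerase III. Both kinds of promoter share a proximal element bound by the SNAPc complex and an upstream element that often holds the octamer bound by POU2F1 (OCT1).

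None of the members has an entry of its own in the promoter table, so motifs were sought beside the 9 members for which a neighbouring gene's promoter window, the 250 bases before its start, lay within 300 bases (12 windows). The 3 windows that hold the octamer are shown, because they put letters to the region under or beside the peaks. They come from RefSeq (GRCh38.p14), are written on the plus strand, and have the octamer, ATTTGCAT or its other strand ATGCAAAT, in capitals.
RNU4-2, promoter window of SIRT4 (chr12:120291939-120292188): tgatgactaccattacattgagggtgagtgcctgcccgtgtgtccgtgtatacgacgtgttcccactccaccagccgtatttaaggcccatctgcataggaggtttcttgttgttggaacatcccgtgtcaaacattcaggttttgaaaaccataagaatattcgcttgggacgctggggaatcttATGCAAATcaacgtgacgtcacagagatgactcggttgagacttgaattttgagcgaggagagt
RNU6-9, promoter window of MED16 (chr19:893188-893437): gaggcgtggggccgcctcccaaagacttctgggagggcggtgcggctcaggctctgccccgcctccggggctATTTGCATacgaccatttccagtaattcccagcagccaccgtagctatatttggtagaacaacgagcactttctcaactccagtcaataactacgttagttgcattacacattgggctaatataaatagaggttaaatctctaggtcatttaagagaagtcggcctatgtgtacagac
RNU2-63P, promoter window of LOC105374852 (chr2:88016628-88016877): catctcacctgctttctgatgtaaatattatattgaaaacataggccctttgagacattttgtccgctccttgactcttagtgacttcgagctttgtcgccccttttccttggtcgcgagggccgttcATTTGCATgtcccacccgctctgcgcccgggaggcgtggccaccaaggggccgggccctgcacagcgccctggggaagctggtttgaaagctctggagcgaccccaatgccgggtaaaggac
The octamer matched 3 of the 12 windows, against 573 of 35116 promoter windows in the table (1.63%). It lay 222 bases from RNU4-2, 217 bases from RNU6-9 and 209 bases from RNU2-63P. The octamer at RNU4-2 lay inside the PPARα and PML/RARA peaks, that at RNU6-9 inside a PML/RARA peak with no PPARα peak there, and that at RNU2-63P inside the PPARα peak and at the edge of a weaker PML/RARA peak. The nuclear receptor half-site AGGTCA, or TGACCT on the other strand, matched 4 of the 12 windows, against 12.1% of all windows. Some windows of RNU2-63P and RNU12 overlap, and the 4 matches are 3 distinct sites. A match describes letters and is not a binding site. The C12orf57 window also holds RNU7-1, the RNA that directs histone mRNA 3′ end formation, at chr12:6943816-6943878 on the plus strand. Its gene sequence follows, with the Sm-protein site, bases 21 to 29, in capitals.
RNU7-1: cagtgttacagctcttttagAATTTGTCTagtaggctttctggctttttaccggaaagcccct

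The named snRNA genes were marked far more often than other short genes. A PPARα peak lay within 1 kb of 28 of the 41 named genes (68.3%, interval 51.9 to 81.9), and a PML/RARA peak of 34 (82.9%, 67.9 to 92.8). All 28 with a PPARα peak also had a PML/RARA peak. Over all 133 members the counts were 38 for PPARα (28.6%, 21.1 to 37.0), 52 for PML/RARA (39.1%, 30.8 to 47.9) and 37 for both (27.8%, 20.4 to 36.3). Among 8747 other genes of up to 400 bases, 4.21% had a PPARα peak, 10.1% a PML/RARA peak and 4.05% both. Over all 55929 other genes, which are mostly longer, the shares were 18.8% and 36.5%. Counting every distinct peak within 1 kb, the 28 PPARα peaks at the named genes had a median fold of 8.25, against 6.25 over that whole list, and the 48 PML/RARA peaks a median of 12.5, against 7.41. Of 38 distinct PPARα peaks at the members, 37 overlapped a PML/RARA peak (97.4%), against 8853 of all 9829 (90.1%). Of 67 distinct PML/RARA peaks, 45 overlapped a PPARα peak (67.2%), against 9850 of all 46021 (21.4%). The 80 members with no peak were 59 unnamed models, 14 snaR genes and 7 U1 copies.

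**Figure D1:**
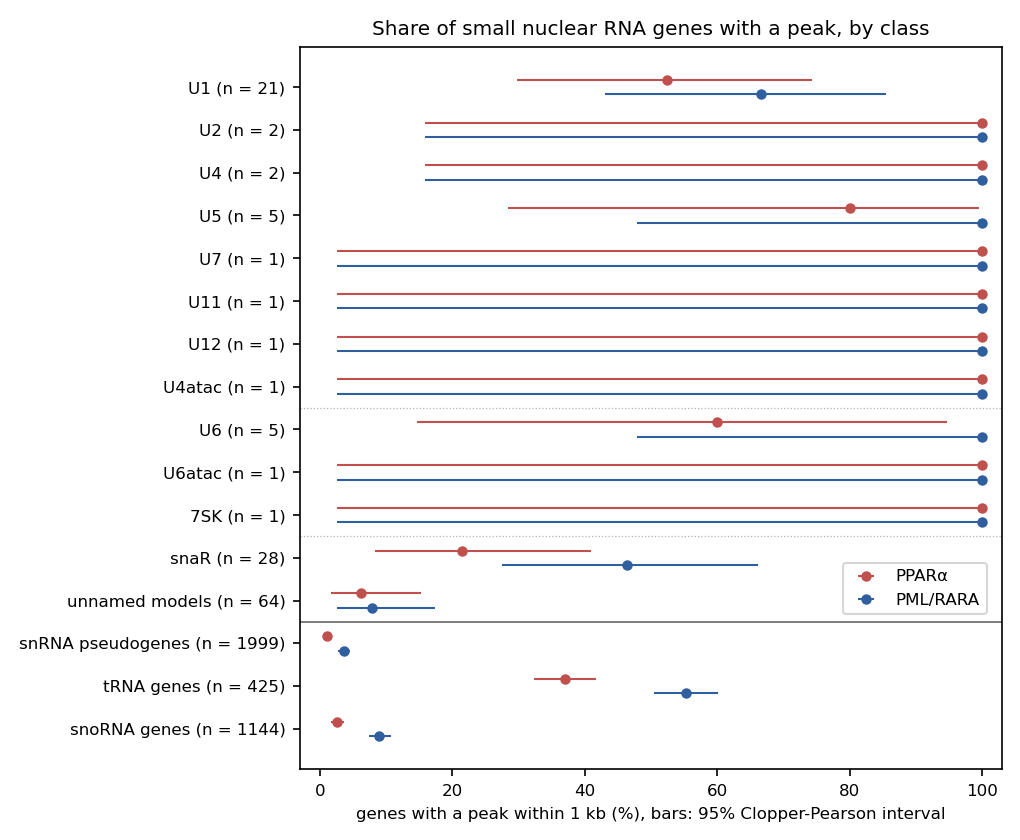
Share of genes with a peak within 1 kb (x axis, percent, with 95% Clopper-Pearson bars) for each class of snRNA gene (y axis), for PPARα (red) and PML/RARA (blue), above the snRNA pseudogenes, tRNA and snoRNA genes. Each gene of every U and 7SK class other than U1 had a PML/RARA peak, while U1 reached 66.7%, snaR 46.4% and the unnamed models 7.81%.

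The genes stood apart from their own pseudogenes, which resemble them in sequence. Of 1999 annotated snRNA pseudogenes on the same chromosomes, 20 had a PPARα peak and 71 a PML/RARA peak (3.55%). The named genes exceeded them by 67.3 percentage points for PPARα (interval 52.0 to 79.4) and by 79.4 points for PML/RARA (65.2 to 88.0). For U6, 3 of 5 genes had a PPARα peak against 4 of 1207 pseudogenes, and 5 of 5 a PML/RARA peak against 30. For U1, 11 of 21 genes had a PPARα peak against 5 of 107 pseudogenes, and 14 a PML/RARA peak against 14. Protein-coding gene ends are often marked (33.1% for PPARα and 59.2% for PML/RARA), and 8 of the 41 named genes lay within 1 kb of one. These were RNU2-2, RNU4-2, RNU6-2, RNU6-9, RNU7-1, RNU11, RNU12 and RN7SK. Of the other 33 named genes, 21 had a PPARα peak (63.6%) and 26 a PML/RARA peak (78.8%), against 15 and 62 of the 1961 pseudogenes away from coding ends. The part of nearby coding genes in the peaks was not tested.

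The U2, U4 and U5 genes of the major spliceosome each had a PML/RARA peak, and each but RNU5F-1 a PPARα peak. U2 pairs with the intron branch point, U4 chaperones U6 and U5 aligns the exons. Both U2 genes, RNU2-2 at chr11:62841619-62841809 and RNU2-63P at chr2:88016358-88016547, overlapped peaks of both lists. Their PPARα folds were 7.58 and 9.08 and their PML/RARA folds 9.89 and 10.8. RNU2-63P is a member by its annotated biotype, though its symbol ends in P as pseudogene symbols do. Fold is the authors' enrichment over background for a peak, and a PPARα fold cannot be set against a PML/RARA fold. The pair RNU4-2 and RNU4-1 on chromosome 12 shared 1 peak of each list, of fold 6.09 (PPARα) and 10.3 (PML/RARA). The −log10 q of that PML/RARA peak was 393, rank 221 of 46021. Among the 5 U5 genes, RNU5A-1 had folds of 10.3 (PPARα) and 19.4 (PML/RARA), RNU5B-1 9.73 and 14.1, RNU5D-1 8.66 and 13.7, and RNU5E-1 7.55 and 11.1. RNU5F-1, inside the coding gene ARMH1, had a PML/RARA peak of fold 10.4 but its nearest PPARα peak was 8716 bases away. At RNU5D-1 the PML/RARA peak given lay 718 bases from the gene, and one 15 bases away had a fold of 10.8. At RNU5F-1 the one given lay 329 bases away, and the PML/RARA peak overlapping the gene had a fold of 8.07. A PML/RARA peak touched the gene itself in 2 of the 5 U5 genes.

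U1, which recognises the 5′ splice site, was the one large and mixed class. Of its 4 RNU1 genes, RNU1-1 and RNU1-2 had peaks of both lists, and RNU1-3 and RNU1-4 of neither. Of the 17 RNVU1 variant copies, 9 had a PPARα peak and 12 a PML/RARA peak. RNU1-1, at chr1:16514122-16514285, had a PPARα fold of 13.9 and a PML/RARA fold of 34.1, at the 97.4th and 99.8th percentile of the folds in its list. RNVU1-15 had 10.6 and 36.1. RNVU1-19 had a PPARα fold of 11.7 and a PML/RARA fold at the 99.9th percentile. RNVU1-14 had 8.95 and 25.6, RNVU1-2A 9.01 and 16.4, and RNVU1-6 8.27 and 14.0. The PPARα folds at RNVU1-28, RNVU1-27, RNVU1-30 and RNVU1-8 were lower, at 5.78, 5.50, 4.23 and 4.05, all under the list median of 6.25. The PML/RARA folds of their best peaks were 16.5, 26.5, 31.7 and 12.4, all above the list median of 7.41. At RNVU1-8 that peak lay 32 bases from the gene, and the PML/RARA peak overlapping the gene had a fold of 6.98. RNVU1-18, RNVU1-3 and RNVU1-4 had a PML/RARA peak only, with folds of 11.3, 14.9 and 31.4. RNVU1-1 and RNVU1-17 lay just outside the window for PML/RARA, at 1057 and 1157 bases, and RNVU1-26 and RNVU1-31 were 22295 and 184245 bases from one. The copies are nearly identical and how reads that map to several places were treated is not stated by the labels, and a call at a single U1 copy is uncertain.

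Peaks sat differently over U1 and over the other polymerase II genes. The median distance from a U1 gene to its best peak's summit was 5 bases for PPARα and 25 for PML/RARA, with the summit inside the gene in 5 of 11 and 6 of 14. In the 13 other polymerase II genes no summit lay inside the gene, and the median distance was 298 bases for PPARα (12 genes) and 400 for PML/RARA (13 genes). The U1 peaks were also narrower, with a median width of 444 bases against 1110 for PPARα, and 457.5 against 1011 for PML/RARA. U1 folds for PML/RARA had a median of 21.2, against 13.4 for the other polymerase II genes, while the median −log10 q was 89.5 for U1 and 288 for the others. Over all 46021 PML/RARA peaks the median fold was 7.41 and the median −log10 q 11.9. Whether multi-mapping reads enter into this was not tested.

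**Figure D2:**
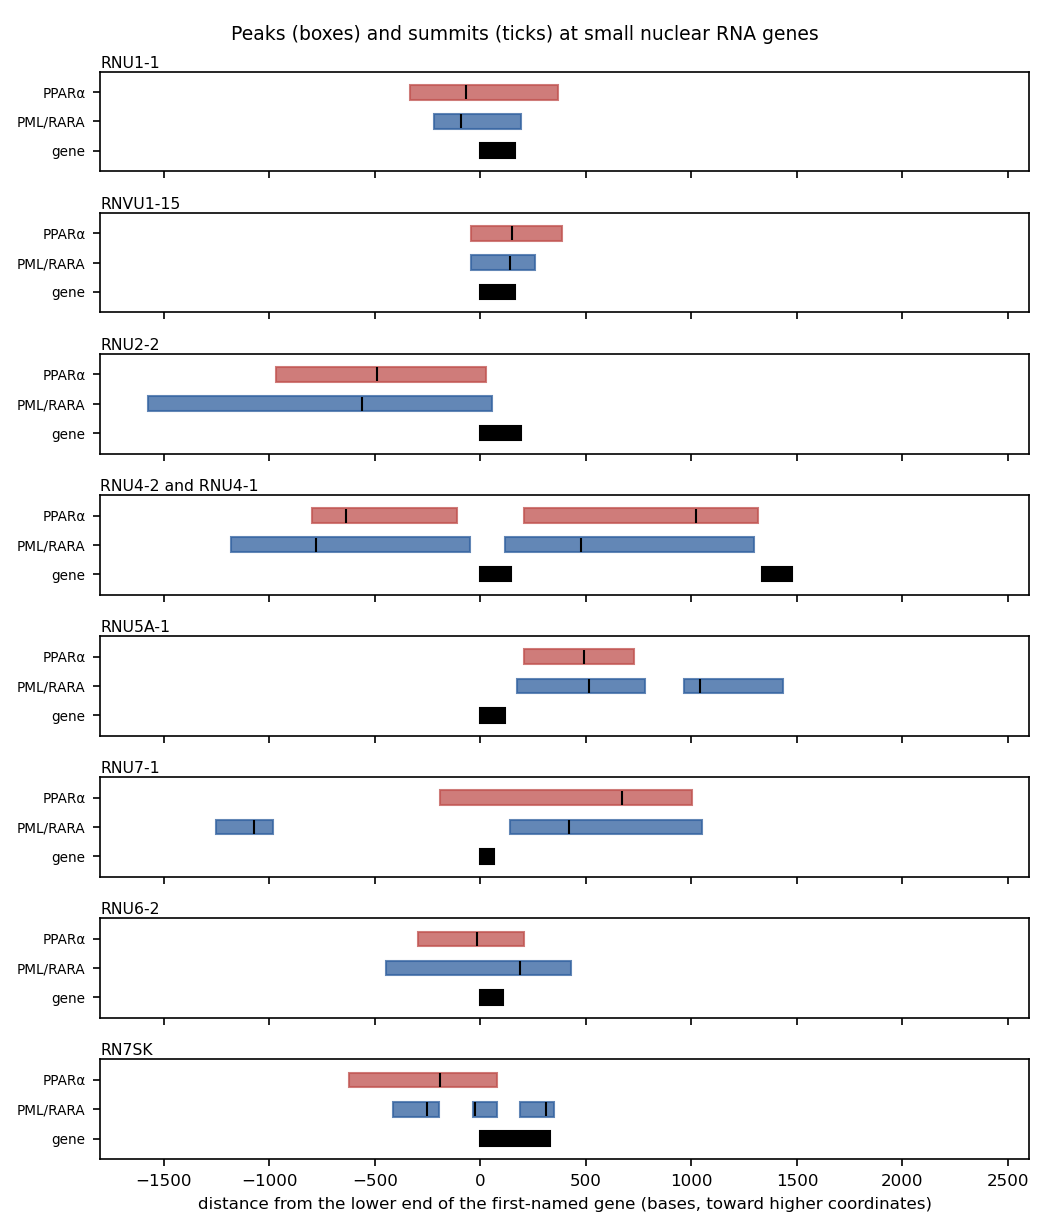
Peaks (boxes) with summits (ticks) of PPARα (red) and PML/RARA (blue) around 8 snRNA loci (black boxes), by distance in bases from the lower end of the first-named gene toward higher coordinates. The RNVU1-15 summits fall inside the gene, while those at RNU2-2 and RNU5A-1 lie to one side of it. At RNU7-1 the summits of the best peaks lie on one side of the gene, and that of a weaker PML/RARA peak, of fold 3.29, on the other.

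The genes of the minor spliceosome, which removes a rare class of intron, were marked in both lists at each of the 4 loci. U11 recognises the 5′ splice site of these introns, and RNU11 had a PPARα fold of 8.23 and a PML/RARA fold of 16.9. U12 pairs with their branch point, and RNU12 had 6.49 and 13.9. RNU4ATAC, inside CLASP1, had 7.27 and 19.8. RNU6ATAC, the polymerase III member of the set, had 8.62 and 22.2, the highest PML/RARA fold outside U1 and snaR among the named members. RNU7-1 had a PPARα fold of 12.1 with a −log10 q of 41.5, the highest of any member in that list, and a PML/RARA fold of 13.4. It lies inside the coding gene C12orf57, 383 bases from an end of that gene, and the PPARα summit lay 610 bases from RNU7-1.

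Among the polymerase III genes of the U6, U6atac and 7SK types, all 7 had a PML/RARA peak within 1 kb and 5 had a PPARα peak. The PML/RARA count was 3 of 7 where the peak had to overlap the gene, and 4 of 7 with that list shortened to the length of the PPARα list. For U6 alone it was 2 of 5 under either setting. U6 forms the catalytic centre of the spliceosome with U2, and 7SK holds the elongation factor P-TEFb inactive. RNU6-2 had the highest U6 folds, 11.6 for PPARα and 17.2 for PML/RARA. RNU6-8 had 7.42 and 10.8, and RNU6-1 4.66 and 12.6. RNU6-9, 297 bases from an end of MED16, had a PML/RARA fold of 11.7 but no PPARα peak within 20808 bases. RNU6-7 sat on the edge of the rule, 998 bases from a PML/RARA peak that it shares with RNU6-8 and 1063 bases from a PPARα peak. RN7SK had a PPARα fold of 11.9 and 3 PML/RARA peaks of 19.4, 4.98 and 8.17.

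**Figure D3:**
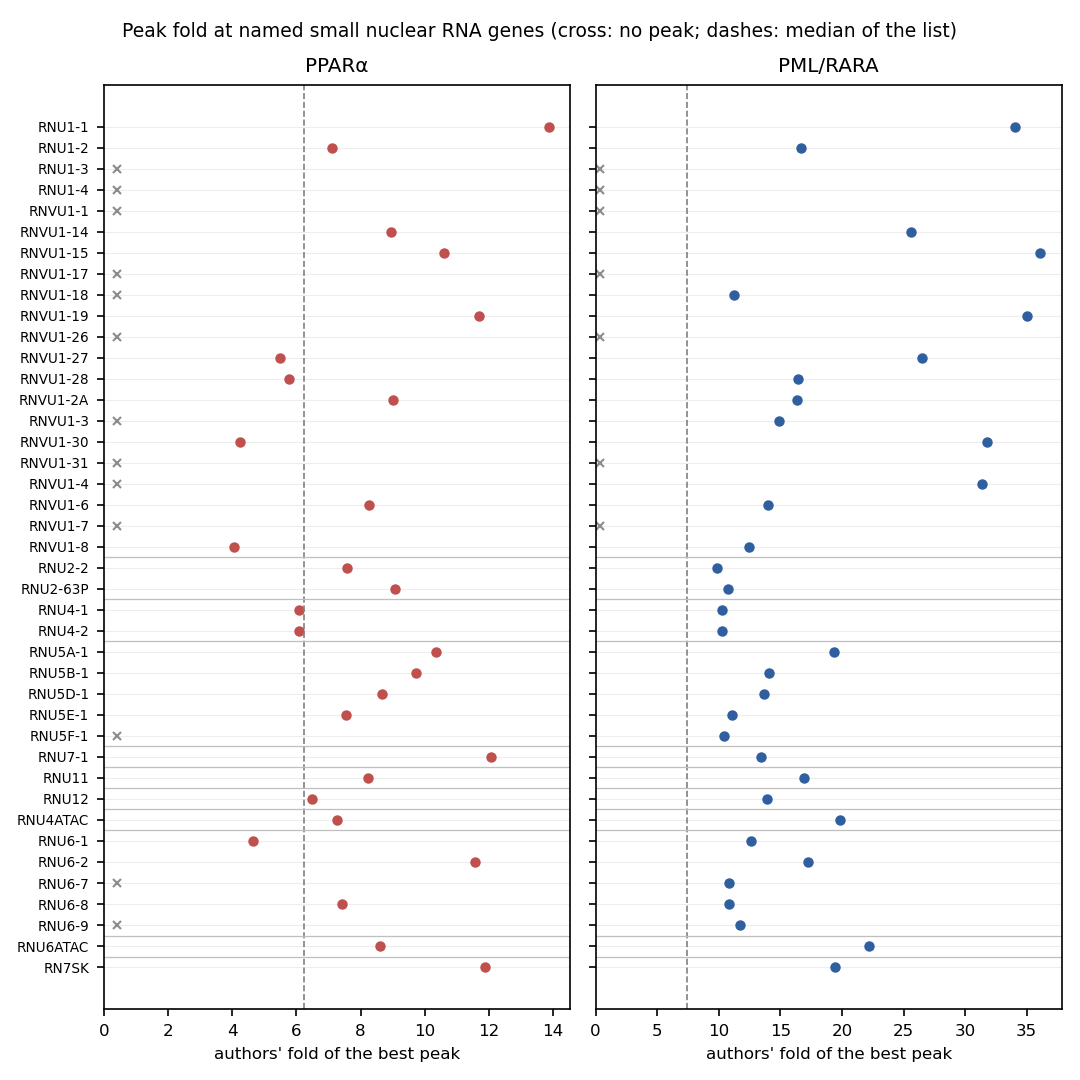
Authors' fold of the best peak (x axis, linear) within 1 kb of each of the 41 named snRNA genes (y axis), for PPARα (left) and PML/RARA (right); crosses are genes with no peak and dashed lines the median fold of all peaks in the list. By its best peak, the one of highest −log10 q, each of the 34 marked genes lies above the PML/RARA median of 7.41, with the highest folds at U1 copies. Taking the best peak raises these values. Weaker peaks at the same genes, down to a fold of 2.78, are not drawn.

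The polymerase types could not be ordered among the 41 named genes. The 28 snaR genes and 64 unnamed models were left out of this comparison. For PPARα, 23 of 34 polymerase II genes were marked (67.6%) and 5 of 7 polymerase III genes (71.4%), a difference of -3.78 points with an interval of -30.2 to 34.1. For PML/RARA the counts were 27 of 34 (79.4%) and 7 of 7, a difference of -20.6 points (-36.8 to 16.3). Both intervals include 0, and 7 polymerase III genes leave them wide. Without U1, which was left out after its values were seen, 12 of 13 polymerase II genes had a PPARα peak and 13 of 13 a PML/RARA peak. The result depended on leaving out snaR. With snaR counted as polymerase III, also chosen after seeing the data, 11 of 35 such genes had a PPARα peak and 20 of 35 a PML/RARA peak. The differences were then 36.2 points (12.6 to 54.7) for PPARα and 22.3 (0.270 to 41.5) for PML/RARA, and neither interval includes 0.

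The snaR genes, which encode primate RNAs found with the protein NF90 and are near-identical copies mostly on chromosome 19, were marked at 6 of 28 for PPARα (21.4%) and 13 for PML/RARA (46.4%), with 5 in both. These counts moved with the rule. The PPARα count was 3 for overlap with the gene and 13 within 5 kb. The PML/RARA count was 6 for overlap, 20 within 5 kb and 4 with the shortened list. SNAR-C3 had the highest PML/RARA fold, 35.5, followed by SNAR-C1 with 30.6 and SNAR-B1 with 28.6. SNAR-A12 had the highest PPARα fold, 12.1. As for U1, the treatment of reads that map to several copies is not stated, and a call at a single snaR copy is uncertain. SNAR-A3 was the only member with a PPARα peak and no PML/RARA peak, its fold was 3.86 and its −log10 q 1.83, near the lowest in the list. SNAR-A5, SNAR-A14 and RNU6-7 were the members nearest inside 1 kb for PML/RARA, at 920, 936 and 998 bases. SNAR-A14 and RNU6-7 were nearest outside it for PPARα, at 1059 and 1063 bases. Of the 64 unnamed models, 4 had a PPARα peak (6.25%) and 5 a PML/RARA peak (7.81%), close to the shares of other short genes. Within 5 kb these counts were 7 and 13. The few marked models mostly had strong peaks. LOC124904147 had a PML/RARA −log10 q of 385, rank 234 of 46021, and LOC124900516, LOC124904613 and LOC124904122 had 116, 110 and 106. These 4 also had PPARα peaks, with folds of 5.88 to 8.68. LOC124900516 lies 547 bases from an end of the coding gene ACTR1B and within the pseudogene RNU4-8P, which the same peaks mark. LOC124901191, with a PML/RARA peak only, had a −log10 q of 5.06.

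**Figure D4:**
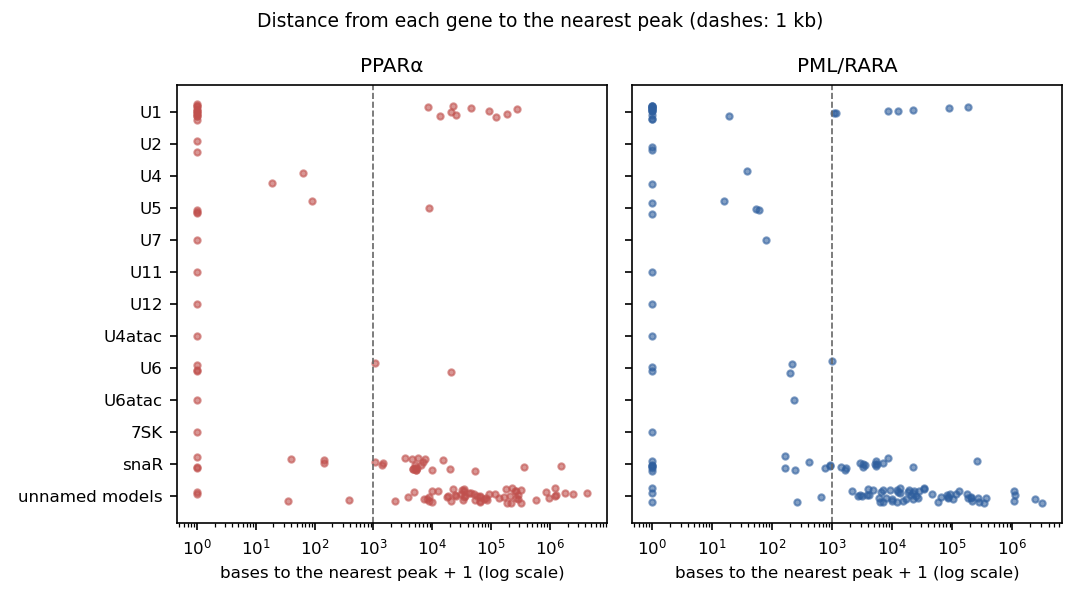
Distance from each member to the nearest peak (x axis, bases plus 1, log scale) by class (y axis), for PPARα (left) and PML/RARA (right); the dashed line is 1 kb. The named genes fall mostly at 0, while the unnamed models have a median distance of 61247.5 bases for PPARα and 21363.5 for PML/RARA.

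The genes that make and use these RNAs were also marked. Of 87 genes for snRNA transcription, processing and assembly, 86 were found, with a PPARα peak within 1 kb of an end at 62 (72.1%) and a PML/RARA peak at 83 (96.5%), against 33.1% and 59.2% of all protein-coding genes. SNAPc had PPARα peaks at 4 of 5 genes and PML/RARA peaks at 5. Integrator, which cleaves snRNA 3′ ends, had PPARα peaks at 10 of 14 and PML/RARA peaks at 14. The SMN and Gemin assembly genes had PPARα peaks at 2 of 7 (28.6%) and PML/RARA peaks at 4 (57.1%), near the shares of all protein-coding genes. The highest −log10 q values were at INTS7, ICE1, LARP7, LSM5, INTS13 and INTS4 for PPARα and at ELL, LSM4, SNRNP70, SNAPC2, ZNF473 and SNRPD2 for PML/RARA. ICE1 and ELL act in the little elongation complex at snRNA genes, LARP7 binds 7SK and ZNF473 acts in histone mRNA processing with U7.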

How the data were processed

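CUT&Tag was done in NB4 cells with 4 libraries. Per the submitters' processing notes, Bowtie2 2.2.9, SAMtools, MACS 1.4.2 and bedtools were used on hg38, with roles and settings not given. The narrowPeak layout belongs to newer MACS releases, which leaves the version of the caller uncertain. The deposited lists give, as the authors' values, a fold (ratio over background) and a −log10 q-value per peak, and 1 list stands for each antibody. The sources used here do not say whether IgG was the control.

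Gene positions are those of a RefSeq table (GRCh38.p14). Distance ran from gene edge to peak edge, 0 meaning overlap. The peak with the highest −log10 q within 1 kb is a gene's best peak. Motifs were planned for the members' own promoters, and neighbouring windows were used instead. Members and lists were chosen with earlier results of these data known. Named genes mostly followed a rule: every member of classes of up to 5, the marked members by falling −log10 q in larger classes, and up to 6 unmarked ones. It also took members nearest 1 kb and the 6 strongest assembly genes per list. The snaR genes departed from it, since those with the highest folds were named and no unmarked snaR gene was. Counts with intervals were computed with Python 3.11.15, pandas 2.3.3 and SciPy 1.17.1, tested on simulated data. Alternatives changed the distance, the peak thresholds, the length of the PML/RARA list and the members included.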

Additional observations from a re-analysis of the deposited data

How the results depend on the processing

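Counts for PPARα and for both lists were within 1.5 times of those reported under the other distances (500 bases, 5 kb), the summit rule, a −log10 q or fold of at least 5, and grouping of members within 5 kb. Requiring overlap with the gene itself lowered the PML/RARA count to 33 and the count for both to 23. Restricting the members to RNU, RNVU and RN7SK symbols gave 34 for PML/RARA, of 41 genes in place of 133 (82.9% against 39.1%). The polymerase II minus III difference changed sign under some settings, and every planned interval included 0. For PPARα it was 1.68 points at a −log10 q of at least 5 and 4.62 at a fold of at least 5. For PML/RARA it was 18.9 points under gene overlap and 10.5 with the list shortened to the length of the PPARα list. In alternatives chosen after seeing the data, counting snaR with polymerase III gave 36.2 points (12.6 to 54.7) for PPARα and 22.3 (0.270 to 41.5) for PML/RARA, and leaving U1 out gave 20.9 for PPARα, with an interval that includes 0. No paired analysis was possible because each antibody has 1 list. Depth is unknown, so a missing peak is one not called in that list.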

Other observations

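The few snRNA pseudogenes with strong peaks, chosen after their values were seen, included the following. RNU5E-4P, 27 bases from the PML/RARA peak that also marks RNU5E-1, had a −log10 q of 328 and a fold of 11.1. RN7SKP114, 767 bases from an end of UBAP2, reached 42.7 on that scale for PPARα, at fold 13.9. Coding ends lay within 1 kb of 5 of the 20 pseudogenes with a PPARα peak and 9 of the 71 with a PML/RARA peak. RNVU1-21, RNVU1-23, RNVU1-2 and RNVU1-34, listed as pseudogenes despite their symbols, overlapped peaks of both lists, with PML/RARA folds of 18.2, 17.4, 15.3 and 18.7.

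Other short RNA genes were marked to different extents. Of 425 tRNA genes, 157 had a PPARα peak (36.9%) and 235 a PML/RARA peak (55.3%). Of 1144 snoRNA genes, most of which sit inside host genes, 29 had a PPARα peak (2.53%) and 102 a PML/RARA peak (8.92%).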
